A study of Mus musculus with 12 samples.

Results

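Nuclear receptors are transcription factors that bind DNA as monomers, homodimers or heterodimers and whose activity is set by small lipophilic ligands or, for the orphan members, by other means. Described here are the 37 mouse nuclear receptor genes that remain when the PPARs, the RXRs, the RORs and the Nr1d genes are set aside, chosen by gene symbol alone from the 55357 genes of the count table. Of these, 34 had a count in at least 1 library and 31 passed the filter on low counts and were tested.

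Liver RNA was sequenced from male C57BL/6J mice, 7 weeks old at the start of a 6 week feeding period. All animals carried a floxed Ppara gene. KO mice (PPARa fl/fl AlbuminCre Tg/+) also carried a Cre transgene driven by the albumin promoter, which deletes Ppara in hepatocytes and leaves it in the other cells of the liver, and WT mice (PPARa fl/fl AlbuminCre +/+) did not. WT mice on standard chow (WT chow, n = 4) or on CDAHFD, a choline-deficient, amino acid-defined high fat diet that gives steatohepatitis with fibrosis in mice (WT CDAHFD, n = 3), were compared with KO mice on chow (KO chow, n = 2) or CDAHFD (KO CDAHFD, n = 3).

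In the liver, several of these receptors sense the molecules the organ handles. FXR (Nr1h4) is the bile acid receptor and induces SHP (Nr0b2), which has no DNA-binding domain and represses other receptors. LXRα and LXRβ (Nr1h3 and Nr1h2) sense oxysterols, CAR (Nr1i3) and PXR (Nr1i2) sense xenobiotics and induce cytochrome P450 enzymes, and the thyroid hormone receptor β (Thrb) is the main thyroid hormone receptor of hepatocytes. HNF4α (Hnf4a) maintains hepatocyte identity, LRH-1 (Nr5a2) regulates bile acid synthesis, and the NR4A receptors (Nr4a1, Nr4a2 and Nr4a3) are immediate early genes that are induced by cAMP, calcium and stress signals.

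Each library held between 29906785 and 43551003 counts on genes. Levels are given as CPM, the count scaled to a common library size after correction by the TMM method (trimmed mean of M values), always in replicate order. Ppara itself stood at 120.1, 96.2, 238 and 226 CPM in WT chow, 14.4 and 38.7 CPM in KO chow, 59.5, 75.5 and 73.5 CPM in WT CDAHFD and 36.3, 20.7 and 51.9 CPM in KO CDAHFD, so that the KO and WT libraries did not overlap on either diet. The summed level of 7 hepatocyte markers lay between 82457 and 104215 CPM in WT chow, between 71902 and 82824 CPM in KO chow, between 42660 and 52701 CPM in WT CDAHFD and between 40943 and 55777 CPM in KO CDAHFD. Libraries also differed in the phase of the circadian clock: a score of evening genes minus morning genes was -2.08 and -1.68 in WT chow replicates 1 and 2 against 1.90 and 1.99 in replicates 3 and 4, and KO CDAHFD replicate 3, at 3.12, stood apart from the other 2 of its group, at -0.37 and -0.34. The 2 KO chow libraries were at -1.66 and 0.85. In bulk tissue, fewer cells of a type and less RNA per cell cannot be told apart.

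Promoter windows of RefSeq (GRCm38.p6), 300 bases from 250 before to 50 after a transcription start, were found for 33 of the 37 genes. Nr0b2 and Nr1i3 are shown because they were among the receptors that fell most in KO chow, and the NR4A genes because 2 of these relatives rose in the comparisons with WT chow while Nr4a2 was not called. Printed are the 250 bases before the start, 5′ to 3′ on the strand of the gene, with capitals for CACGTG, the E-box, in Nr0b2 and Nr1i3 and for TGACG, read on either strand, the core of the cAMP response element, in the NR4A genes.
Nr0b2 (chr4:133553126-133553375, plus strand): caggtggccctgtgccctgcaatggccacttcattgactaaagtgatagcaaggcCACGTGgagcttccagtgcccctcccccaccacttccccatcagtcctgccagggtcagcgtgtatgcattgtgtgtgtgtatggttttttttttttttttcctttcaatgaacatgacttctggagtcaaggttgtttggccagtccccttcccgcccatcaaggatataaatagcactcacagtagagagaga
Nr1i3 (chr1:171213720-171213969, plus strand): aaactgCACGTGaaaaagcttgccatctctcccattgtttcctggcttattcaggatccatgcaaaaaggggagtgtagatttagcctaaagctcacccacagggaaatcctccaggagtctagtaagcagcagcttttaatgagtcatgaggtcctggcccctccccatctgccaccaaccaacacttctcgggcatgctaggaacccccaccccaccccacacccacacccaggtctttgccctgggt
Nr4a1 (chr15:101266596-101266845, plus strand): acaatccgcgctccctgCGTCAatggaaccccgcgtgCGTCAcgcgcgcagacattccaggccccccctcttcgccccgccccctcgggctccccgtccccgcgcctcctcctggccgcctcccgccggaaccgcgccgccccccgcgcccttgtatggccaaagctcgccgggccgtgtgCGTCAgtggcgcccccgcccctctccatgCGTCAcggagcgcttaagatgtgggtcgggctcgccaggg
Nr4a2 (chr2:57124004-57124253, minus strand): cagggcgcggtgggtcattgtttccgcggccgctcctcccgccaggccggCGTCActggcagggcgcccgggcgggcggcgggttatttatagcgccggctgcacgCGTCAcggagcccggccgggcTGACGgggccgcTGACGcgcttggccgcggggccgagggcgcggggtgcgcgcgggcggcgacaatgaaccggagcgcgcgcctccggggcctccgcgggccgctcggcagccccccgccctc
Nr4a3 (chr4:48045055-48045304, plus strand): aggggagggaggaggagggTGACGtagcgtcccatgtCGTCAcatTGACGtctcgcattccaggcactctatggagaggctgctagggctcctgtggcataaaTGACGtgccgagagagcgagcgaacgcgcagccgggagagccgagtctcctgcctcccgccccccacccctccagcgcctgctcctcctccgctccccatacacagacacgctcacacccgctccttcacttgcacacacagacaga
Of all 32851 windows, 7.15% held CACGTG, and among the receptors Esr2, Rara and Thrb had a window with it as well. TGACG was in 20.8% of all windows and at least once in those of 12 receptors. Each NR4A window held 4 copies, which 0.231% of all windows (76) and no other receptor reached. The full palindrome TGACGTCA, which contains TGACG on both strands, was in 1.79% of all windows and in those of Nr2e1 and Nr6a1. AGGTCA, the half-site that many nuclear receptors bind, was in 16.3% of all windows and in those of Nr0b1, Nr1h4, Nr5a2, Nr6a1, Rara, Rarg and Thrb. The motifs and the windows to print were chosen with the expression values known, and a match is a description of the letters only. The Nr4a1 window lies within the span of the annotated gene, and the Nr4a3 window reaches into it, since both genes have a further start upstream.

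Levels of different genes were compared per kilobase of exon. In WT chow, Hnf4a was highest at 174 ± 59.0 CPM per kilobase (SD, n = 4), above every library of the next gene, followed by Nr1h4 at 74.8 ± 15.6, Nr0b2 at 59.0 ± 4.66 and Nr1h3 at 59.0 ± 5.14 CPM per kilobase, whose libraries overlapped from each gene to the next. Nr1i2 (31.9 ± 3.80) and Nr2f6, which encodes the orphan receptor EAR2 (28.8 ± 3.96), came next and also overlapped, then Nr5a2 (17.6 ± 2.12), Nr1h2 (16.2 ± 1.05) and the glucocorticoid receptor gene Nr3c1 (16.1 ± 1.79 CPM per kilobase). From Esrra (8.73 ± 2.25) down to Nr3c2 (3.52 ± 1.53 CPM per kilobase), 8 genes overlapped from neighbour to neighbour, among them Thrb and Nr1i3. At the low end stood Hnf4g (0.0487 ± 0.0409), Nr4a3 (0.0254 ± 0.0128) and Vdr (0.00340 ± 0.00690 CPM per kilobase). For Nr1i3, 74.9% of the exon bases are shared with Tomm40l on the opposite strand, for Nr2f6 54.4% with Ocel1, for Rarb 34.1% with Top2b and for Nr2c2 30.7% with Mrps25. The libraries do not keep the strand, so the levels of these genes depend on how shared reads were counted.

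**Figure D1:**
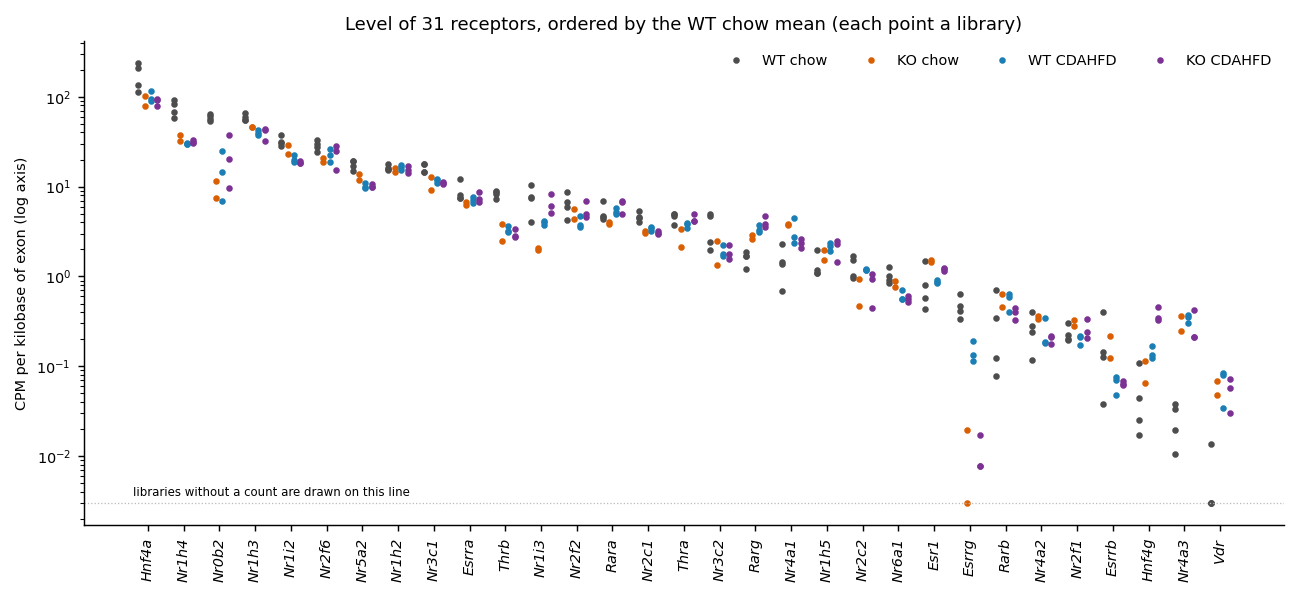
Level of the 31 tested receptors in CPM per kilobase of exon on a log axis, each point a library coloured by group, with libraries without a count drawn on a dotted line, ordered from left to right by the WT chow mean. Hnf4a stands at the top in WT chow, and Esrrg, Nr4a3 and Vdr differ most between the groups.

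In KO chow, 14 of the 31 tested receptors were called different from WT chow. With edgeR's quasi-likelihood test and adjustment over all 17358 genes tested, 4 receptors were higher and 10 lower in KO chow than in WT chow at an adjusted p under 0.05. That is 12.9% higher and 32.3% lower, against 22.0% and 17.0% of all genes. The median log2 fold change of the receptors was -0.36 and that of all genes 0.002. In WT CDAHFD, 21 were called different from WT chow, 6 higher and 15 lower, or 19.4% and 48.4% against 26.1% and 25.0% of all genes. The median was -0.36 against -0.048. Both comparisons share the WT chow libraries. Their calls had 4 receptors higher in both (Nr4a1, Nr4a3, Rarg and Vdr), 9 lower in both (Esrrg, Hnf4a, Nr0b2, Nr1h4, Nr1i3, Nr2c1, Nr3c1, Nr5a2 and Thrb) and 0 in opposite directions, beside 18.8%, 13.3% and 0.184% of all genes. The numbers higher and lower depended on the scaling. With library totals in place of TMM, the median of all genes was 0.404 in KO chow and 0.51 in WT CDAHFD. The calls became 8 higher and 5 lower in KO chow and 9 higher and 4 lower in WT CDAHFD. The calls lost with library totals were those of Hnf4a, Nr2c1, Nr3c1, Nr5a2 and Thra in KO chow, and of Esrrb, Hnf4a, Nr1h3, Nr1i2, Nr1i3, Nr2c1, Nr2f2, Nr3c1, Nr3c2, Nr5a2 and Nr6a1 in WT CDAHFD. Of all genes, library totals called 40.5% higher and 6.62% lower in KO chow and 52.4% and 6.74% in WT CDAHFD. DESeq2 called 5 receptors higher and 14 lower in KO chow, among the lower ones Nr1h3, Nr2c2, Nr2f6 and Nr3c2. Of all genes it called 23.2% higher and 18.6% lower there. Vdr, Nr4a3 and Hnf4g passed the filter with no WT chow library past its minimum, and Esrrg with no KO library, so each passed only through the groups in which it was high, and its call is no support for the counts. Without these 4, 2 receptors were higher and 9 lower of 27 in KO chow, and 3 higher and 14 lower in WT CDAHFD. Without KO chow replicate 1, which leaves 1 library in that group, fewer receptors and fewer of all genes were called in KO chow. The log2 fold changes of Nr2c1, Nr3c1, Nr5a2, Thra and Hnf4a, which lost their calls, were then -0.50, -0.32, -0.33, -0.45 and -0.75. All changes below are relative to TMM scaling.

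**Figure D2:**
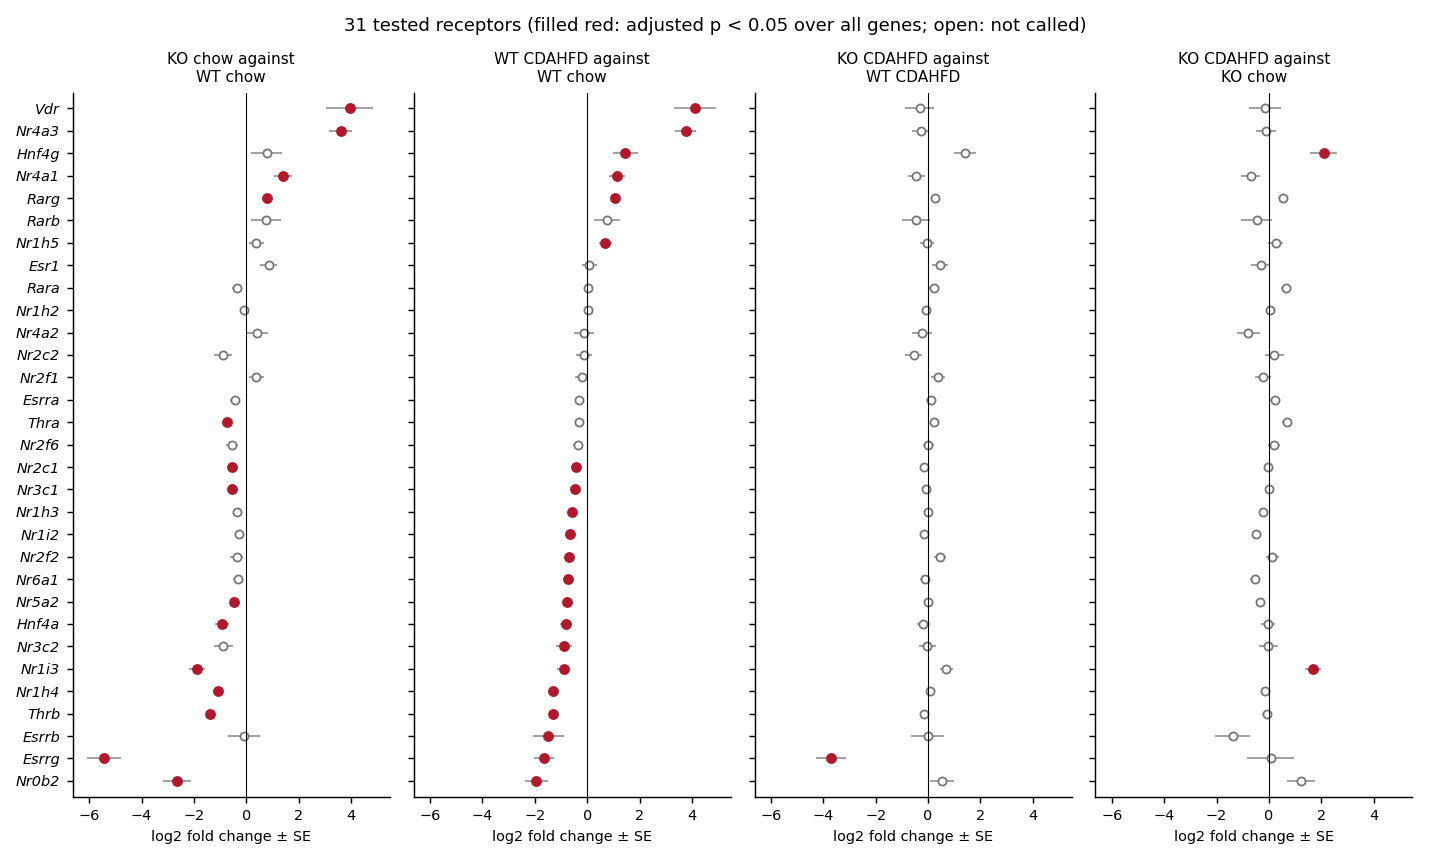
Log2 fold change with its standard error for the 31 tested receptors in the 4 comparisons of groups, ordered by the change in WT CDAHFD relative to WT chow, with filled red points for an adjusted p under 0.05. In the comparisons with WT chow, 14 and 21 receptors are called, and in the comparisons within CDAHFD and within KO mice 1 and 2.

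Nr0b2 and Nr1h4 were lower in both comparisons with WT chow. Nr0b2 (ENSMUSG00000037583, chromosome 4 from 133553376 to 133556536, GRCm38), which encodes SHP, stood at 68.8, 63.6, 61.5 and 73.2 CPM in WT chow, 13.1 and 8.44 CPM in KO chow, 28.0, 16.4 and 7.84 CPM in WT CDAHFD and 22.8, 42.0 and 10.8 CPM in KO CDAHFD. Every library outside WT chow was below all 4 WT chow libraries, and WT CDAHFD and KO CDAHFD spread widely and overlapped. Its mean fell from 66.8 ± 5.27 CPM (SD, n = 4) to 10.8 ± 3.28 CPM (SD, n = 2) in KO chow, a 6.21-fold decrease (log2 fold change -2.63 ± 0.54, adjusted p = 0.00202, edgeR), and to 17.4 ± 10.1 CPM (SD, n = 3) in WT CDAHFD (log2 fold change -1.94 ± 0.44, adjusted p = 0.00266, edgeR). Nr1h4 (ENSMUSG00000047638, chromosome 10 from 89454234 to 89533585), which encodes FXR, stood at 132, 154, 191 and 212 CPM in WT chow, 74.1 and 87.3 CPM in KO chow, 69.5, 71.2 and 69.1 CPM in WT CDAHFD and 72.5, 71.0 and 75.9 CPM in KO CDAHFD. The 8 libraries outside WT chow lay close together at less than 90 CPM, below every WT chow library. Nr1h4 was 2.14-fold lower in KO chow (log2 fold change -1.09 ± 0.17, adjusted p = 0.000257, edgeR) and 2.46-fold lower in WT CDAHFD (log2 fold change -1.30 ± 0.15, adjusted p = 1.17e-05, edgeR). Nr1h5, the gene of FXRβ, a lanosterol receptor in mice, was low in every library (3.11 to 7.11 CPM) and was higher in WT CDAHFD (log2 fold change 0.70 ± 0.24, adjusted p = 0.028, edgeR), a call that was lost when any of WT chow replicates 2 and 3 or WT CDAHFD replicates 2 and 3 was left out, with adjusted p from 0.0518 to 0.0865.

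The oxysterol receptor genes came next. Nr1h3, encoding LXRα, fell from 148 ± 12.9 CPM (SD, n = 4) in WT chow to 100.3 ± 5.74 CPM (SD, n = 3) in WT CDAHFD (log2 fold change -0.56 ± 0.12, adjusted p = 0.00161, edgeR), and its KO chow libraries, at 117 and 114 CPM, were below all WT chow libraries without passing the test (adjusted p = 0.0522, edgeR). Its log2 fold change in WT CDAHFD was -0.01 with library totals. Nr1h2, encoding LXRβ, was called in neither comparison, with 54.5 ± 3.52 CPM in WT chow, 50.9 ± 3.39 CPM in KO chow, 55.0 ± 4.07 CPM in WT CDAHFD and 51.8 ± 4.76 CPM in KO CDAHFD, although with library totals it was higher in both (0.31 and 0.57, log2 scale). Vdr (ENSMUSG00000022479, chromosome 15 from 97854425 to 97910630), the vitamin D receptor gene, had counts of 2, 0, 0 and 0 in WT chow, 10 and 16 in KO chow, 23, 23 and 9 in WT CDAHFD and 7, 12 and 17 in KO CDAHFD. The gene passed the filter only through the groups in which it was counted, and a fitted fold would rest on the 2 counts of WT chow replicate 1. In CPM, the pooled level was 18.2 times that of WT chow in KO chow (95% exact interval 4.56 to 158) and 20.6 times in WT CDAHFD (5.43 to 174), intervals that cover counting error only. No test is read from this gene.

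Vdr is known to be expressed in stellate cells and macrophages rather than in hepatocytes, and markers of these cells moved in the same comparisons. Of 8 stellate cell and fibroblast markers, 5 were higher in KO chow and 5 in WT CDAHFD, and their summed level was 216 to 296 CPM in WT chow, 801 to 859 CPM in KO chow, 893 to 949.8 CPM in WT CDAHFD and 944 to 1131 CPM in KO CDAHFD. Of 8 macrophage and Kupffer cell markers, 7 and 5 were higher, with summed levels of 289.8 to 519 CPM in WT chow, 893 to 1180.4 CPM in KO chow, 770.3 to 960.1 CPM in WT CDAHFD and 573 to 945 CPM in KO CDAHFD. The 6 cholangiocyte markers summed to 46.4 to 79.5 CPM, 166 to 289 CPM, 361 to 581 CPM and 572 to 888 CPM in the same order. Of the 7 hepatocyte markers tested, 5 were lower in KO chow and 7 in WT CDAHFD. Their part in the receptor changes was not tested.

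The xenobiotic receptors differed from each other. Nr1i3 (ENSMUSG00000005677, chromosome 1 from 171213970 to 171220701), encoding CAR, stood at 18.01, 32.6, 46.1 and 34.0 CPM in WT chow, 9.08 and 8.61 CPM in KO chow, 17.9, 18.3 and 16.3 CPM in WT CDAHFD and 26.98, 22.3 and 36.2 CPM in KO CDAHFD. The 2 KO chow libraries were the lowest of all 12, WT CDAHFD touched the lowest WT chow library, and KO CDAHFD lay above both KO chow and WT CDAHFD. It was 3.70-fold lower in KO chow (log2 fold change -1.89 ± 0.31, adjusted p = 0.000378, edgeR) and 1.87-fold lower in WT CDAHFD (log2 fold change -0.90 ± 0.25, adjusted p = 0.0091, edgeR), the second a call that was lost without the 4 libraries with a clock score above 0 (adjusted p = 0.0641). Tomm40l, whose exons overlap those of Nr1i3, stood at 13.5, 12.2, 10.9 and 13.2 CPM in WT chow, 6.74 and 6.77 CPM in KO chow, 8.40, 8.84 and 7.63 CPM in WT CDAHFD and 9.48, 7.25 and 12.7 CPM in KO CDAHFD. Its KO chow and WT CDAHFD libraries were below every WT chow library as well, and its part in the Nr1i3 counts was not tested. Nr1i2, encoding PXR, went from 81.4 ± 9.71 CPM (SD, n = 4) in WT chow to 66.5 ± 11.7 CPM in KO chow (adjusted p = 0.114, edgeR) and fell to 52.3 ± 5.05 CPM (SD, n = 3) in WT CDAHFD (log2 fold change -0.64 ± 0.12, adjusted p = 0.000815, edgeR), a difference of -0.08 with library totals.

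**Figure D3:**
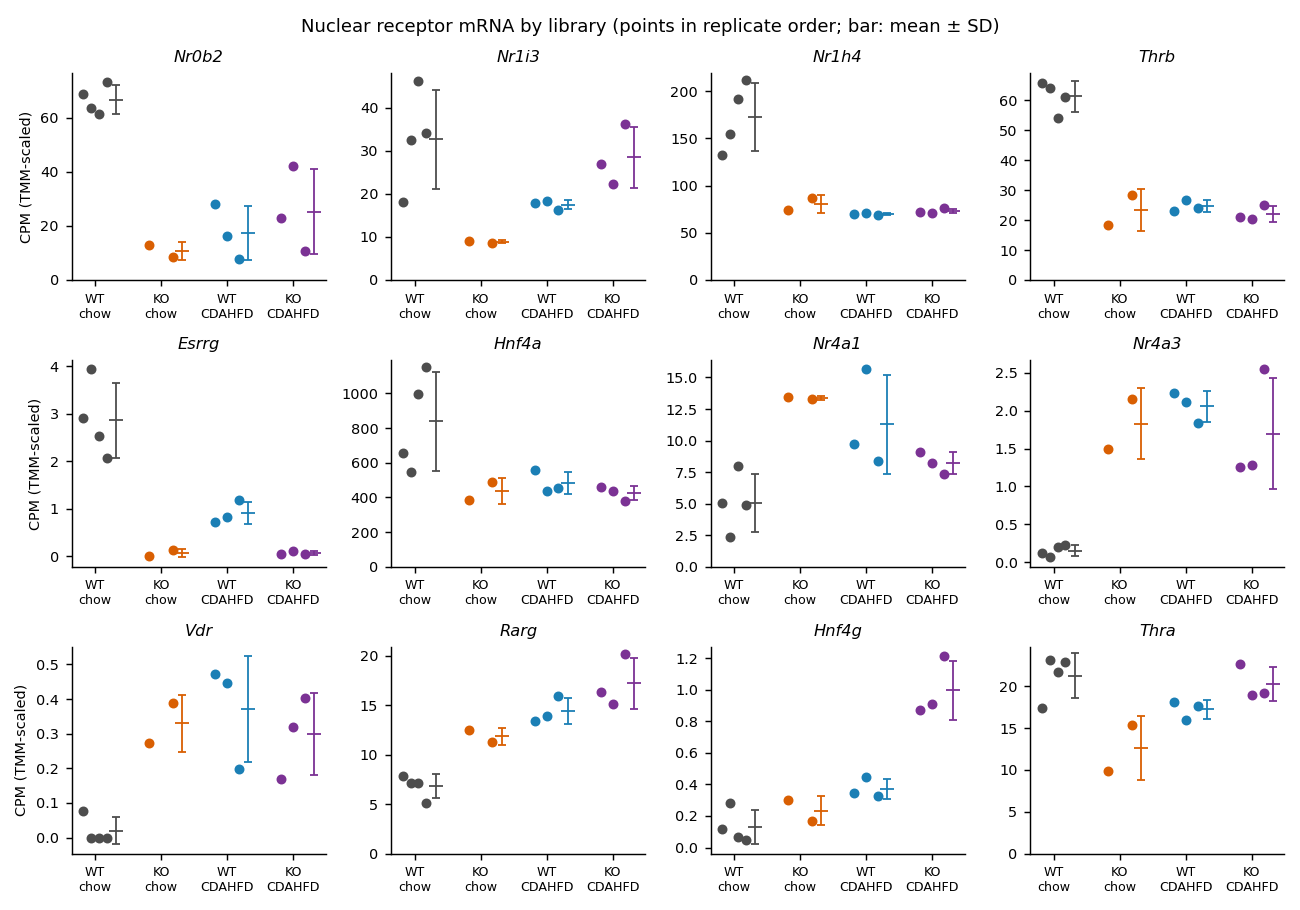
CPM of 12 receptors in each of the 12 libraries, points in replicate order within each group and a bar for the group mean ± SD, on linear axes that include 0. The WT chow libraries stand above all others for Nr0b2, Nr1h4, Thrb and Esrrg and below all others for Nr4a3, Vdr and Rarg.

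Among the thyroid hormone and retinoic acid receptors, Thrb and Rarg moved in opposite directions. Thrb (ENSMUSG00000021779, chromosome 14 from 17660261 to 18038090) stood at 65.8, 64.2, 54.0 and 61.1 CPM in WT chow, 18.5 and 28.5 CPM in KO chow, 23.0, 26.8 and 23.9 CPM in WT CDAHFD and 20.9, 20.3 and 25.1 CPM in KO CDAHFD. No library outside WT chow reached 30 CPM, and none in WT chow was under 50 CPM. The decrease was 2.61-fold in KO chow (log2 fold change -1.38 ± 0.17, adjusted p = 4.88e-05, edgeR) and 2.50-fold in WT CDAHFD (log2 fold change -1.32 ± 0.15, adjusted p = 1.12e-05, edgeR). Thra, the gene of thyroid hormone receptor α, stood at 17.4, 23.1, 21.7 and 22.8 CPM in WT chow, 9.93 and 15.4 CPM in KO chow, 18.1, 16.0 and 17.7 CPM in WT CDAHFD and 22.7, 19.0 and 19.2 CPM in KO CDAHFD. It was lower in KO chow (log2 fold change -0.75 ± 0.18, adjusted p = 0.00552, edgeR) but not without KO chow replicate 1 (adjusted p = 0.098), and in WT CDAHFD the difference was -0.30 ± 0.15 (adjusted p = 0.119, edgeR). The 3′ end of Thra shares 263 exon bases with Nr1d1, a clock gene with 29213 counts over all libraries against 8294 for Thra. Rarg (ENSMUSG00000001288), encoding retinoic acid receptor γ, stood at 7.88, 7.18, 7.14 and 5.14 CPM in WT chow, 12.5 and 11.2 CPM in KO chow, 13.4, 13.9 and 15.9 CPM in WT CDAHFD and 16.4, 15.2 and 20.1 CPM in KO CDAHFD. All 8 libraries outside WT chow were above every WT chow library. The mean was 1.73-fold higher in KO chow (log2 fold change 0.79 ± 0.17, adjusted p = 0.00304, edgeR) and 2.10-fold higher in WT CDAHFD (log2 fold change 1.07 ± 0.15, adjusted p = 8.68e-05, edgeR). Rara differed by -0.37 ± 0.19 in KO chow and 0.05 ± 0.16 in WT CDAHFD and Rarb by 0.76 ± 0.57 and 0.75 ± 0.51 (log2 scale), and neither was called. Rarb spread from 0.413 to 3.75 CPM within WT chow, next to a Top2b level of 55.6 to 81.2 CPM over all libraries.

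Of the steroid receptors, Nr3c1 fell modestly. The glucocorticoid receptor gene was at 124 ± 13.7 CPM (SD, n = 4) in WT chow, 84.5 ± 19.0 CPM in KO chow and 89.5 ± 4.03 CPM in WT CDAHFD (log2 fold change -0.55 ± 0.14, adjusted p = 0.00744; log2 fold change -0.47 ± 0.12, adjusted p = 0.00612, edgeR). With library totals the WT CDAHFD difference turned to 0.09, and without KO chow replicate 1 the KO chow call was lost (adjusted p = 0.136). Nr3c2, the mineralocorticoid receptor gene, stood at 15.8, 12.8, 30.2 and 32.3 CPM in WT chow, where replicates 3 and 4 were well above replicates 1 and 2, and at 10.9, 11.7 and 14.5 CPM in WT CDAHFD. Its call in WT CDAHFD (log2 fold change -0.88 ± 0.31, adjusted p = 0.0311, edgeR) was lost without any of 4 libraries, with adjusted p from 0.0918 to 0.103, and without the 4 libraries with a clock score above 0 the log2 fold change was -0.21 (adjusted p = 0.3). Esr1, the gene of estrogen receptor α, had 20.1, 11.1, 7.97 and 5.87 CPM in WT chow and 19.9 and 20.95 CPM in KO chow, and was not called (adjusted p = 0.0531, edgeR), whereas DESeq2 called it higher (adjusted p = 0.0331). Esr2 and Pgr, the genes of estrogen receptor β and the progesterone receptor, had 6 and 12 counts over all libraries and were not tested.

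Esrrg had the largest fitted decrease of the 31 receptors in KO chow. Esrrg (ENSMUSG00000026610, chromosome 1 from 187608791 to 188214885) encodes estrogen-related receptor γ, which drives oxidative and gluconeogenic genes in liver. It stood at 2.91, 3.93, 2.53 and 2.06 CPM in WT chow, 0 and 0.121 CPM in KO chow, 0.717, 0.835 and 1.18 CPM in WT CDAHFD and 0.0485, 0.107 and 0.0476 CPM in KO CDAHFD, with counts of 75, 125, 76 and 45 in WT chow, 0 and 5 in KO chow, 35, 43 and 54 in WT CDAHFD and 2, 4 and 2 in KO CDAHFD. The 5 KO libraries were all below the 3 WT CDAHFD libraries, which in turn were below the 4 WT chow libraries. Pooled over libraries, the level in WT chow was 45.8 times that in KO chow (95% exact interval 19.4 to 142, counting error only). The fitted change was -5.43 ± 0.65 in KO chow (adjusted p = 3.4e-05, edgeR) and -1.66 ± 0.38 in WT CDAHFD (adjusted p = 0.00304, edgeR). The gene passed the filter with no KO library past its minimum. Without KO chow replicate 2 the KO chow group has no count and the fitted value moves to -9.75. Esrra, the gene of the relative ERRα, was far more abundant, at 32.5 to 53.0 CPM in WT chow and 27.6 to 29.5 CPM in KO chow, and was not called (log2 difference -0.43 ± 0.19, adjusted p = 0.0965, edgeR). Esrrb stood at 0.233, 2.46, 0.767 and 0.871 CPM in WT chow, 1.31 and 0.752 CPM in KO chow, 0.430, 0.291 and 0.459 CPM in WT CDAHFD and 0.412, 0.374 and 0.381 CPM in KO CDAHFD. Its call in WT CDAHFD (log2 fold change -1.48 ± 0.57, adjusted p = 0.0468, edgeR) rested on WT chow replicate 2, without which the adjusted p was 0.269, and was lost in 14 of the 19 alternatives.

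Hnf4a, the most abundant receptor, was lower in both comparisons. Hnf4a (ENSMUSG00000017950, chromosome 2 from 163506808 to 163572910) stood at 654, 547, 998 and 1152 CPM in WT chow, 384 and 491 CPM in KO chow, 556, 435 and 457 CPM in WT CDAHFD and 459, 439.9 and 381 CPM in KO CDAHFD. The 2 WT chow libraries with a clock score above 0 were above the other 2 of their group, and WT CDAHFD replicate 1 overlapped WT chow replicate 2. It was 1.91-fold lower in KO chow (log2 fold change -0.94 ± 0.26, adjusted p = 0.0133, edgeR) and 1.74-fold lower in WT CDAHFD (log2 fold change -0.80 ± 0.23, adjusted p = 0.0107, edgeR). The first call was lost without KO chow replicate 1 (adjusted p = 0.133) and the second without the 4 libraries with a clock score above 0 (adjusted p = 0.0829). Hnf4g, the gene of the relative HNF4γ, was scarce, with counts of 3, 9, 2 and 1 in WT chow, 11 and 7 in KO chow, 17, 23 and 15 in WT CDAHFD and 36, 34 and 51 in KO CDAHFD. In CPM these were 0.117, 0.283, 0.0667 and 0.0459 CPM in WT chow, 0.299 and 0.170 CPM in KO chow, 0.348, 0.447 and 0.328 CPM in WT CDAHFD and 0.873, 0.909 and 1.21 CPM in KO CDAHFD. All CDAHFD libraries were above all chow libraries, and KO CDAHFD was above WT CDAHFD. The gene passed the filter with no WT chow library past its minimum. The pooled level in WT CDAHFD was 2.74 times that in WT chow (95% exact interval 1.53 to 5.23, counting error only; adjusted p = 0.0239, edgeR). The call was lost without WT chow replicate 3 or 4 or WT CDAHFD replicate 2 (adjusted p 0.0583 to 0.0783), with the replicate block (adjusted p = 0.0856) and without the 4 libraries with a clock score above 0 (adjusted p = 0.186), and leaving out 1 library moved the log2 fold change between 1.24 and 2.26.

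Of the remaining receptors of this branch, Nr2c1, encoding TR2, fell in KO chow (log2 fold change -0.55 ± 0.13, adjusted p = 0.00499, edgeR; without KO chow replicate 1, adjusted p = 0.0507, and with library totals -0.14, adjusted p = 0.342) and in WT CDAHFD (log2 fold change -0.44 ± 0.11, adjusted p = 0.00574, edgeR), the latter turning to 0.13 with library totals. Nr2c2, encoding TR4, was at 14.5, 15.2, 25.5 and 23.0 CPM in WT chow and 7.07 and 14.1 CPM in KO chow and was not called (adjusted p = 0.0673, edgeR), whereas DESeq2 called it lower (adjusted p = 0.0362). Nr2f2, encoding COUP-TFII, which marks venous endothelium and stellate cells besides hepatocytes, fell in WT CDAHFD (log2 fold change -0.68 ± 0.22, adjusted p = 0.021, edgeR), with the call lost without WT chow replicate 3 or WT CDAHFD replicates 1 or 2 (adjusted p 0.0732 to 0.0856) or without the 4 libraries with a clock score above 0 (adjusted p = 0.104). Of 8 endothelial markers, 5 were lower in that comparison, with a summed level of 260.3 to 403 CPM in WT chow and 162 to 236 CPM in WT CDAHFD, and their part was not tested. Nr2f1 and Nr2f6 were not called, with log2 differences of 0.38 ± 0.28 and -0.54 ± 0.21 in KO chow and -0.22 ± 0.26 and -0.36 ± 0.19 in WT CDAHFD.

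The NR4A receptors shown above did not move as a block. Nr4a3 (ENSMUSG00000028341, chromosome 4 from 48045153 to 48086447), encoding NOR1, stood at 0.117, 0.0630, 0.200 and 0.229 CPM in WT chow, 1.496 and 2.16 CPM in KO chow, 2.23, 2.12 and 1.84 CPM in WT CDAHFD and 1.26, 1.28 and 2.55 CPM in KO CDAHFD. Its counts in WT chow were 3, 2, 6 and 5, and every library of the other groups was at least 5 times the highest WT chow library. The gene passed the filter with no WT chow library past its minimum. Pooled, the level was 12.6 times that of WT chow in KO chow (95% exact interval 7.51 to 22.7) and 14.1 times in WT CDAHFD (8.56 to 25.03, counting error only), with fitted values of 3.60 ± 0.43 (adjusted p = 3.43e-05, edgeR) and 3.77 ± 0.40 (adjusted p = 7.14e-06, edgeR). Nr4a1 (ENSMUSG00000023034, chromosome 15 from 101254269 to 101274795), encoding NUR77, stood at 5.09, 2.39, 7.97 and 4.86 CPM in WT chow, 13.5 and 13.3 CPM in KO chow, 9.75, 15.7 and 8.37 CPM in WT CDAHFD and 9.09, 8.26 and 7.33 CPM in KO CDAHFD. Both KO chow libraries and the 3 WT CDAHFD libraries were above the highest WT chow library. It was 2.63-fold higher in KO chow (log2 fold change 1.40 ± 0.34, adjusted p = 0.00599, edgeR) and 2.22-fold higher in WT CDAHFD (log2 fold change 1.15 ± 0.31, adjusted p = 0.00772, edgeR), where the call was lost without WT CDAHFD replicate 2 (adjusted p = 0.0544). Nr4a2, encoding NURR1, stood at 0.971, 0.472, 1.63 and 1.147 CPM in WT chow, 1.47 and 1.36 CPM in KO chow, 1.39, 0.757 and 0.743 CPM in WT CDAHFD and 0.873, 0.722 and 0.856 CPM in KO CDAHFD. All KO chow and WT CDAHFD libraries lay within the range of WT chow, with differences of 0.42 ± 0.41 and -0.13 ± 0.37 (log2 scale; adjusted p = 0.443 and 0.8, edgeR).

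Nr5a2, encoding LRH-1, fell from 104 ± 12.5 CPM (SD, n = 4) in WT chow to 75.2 ± 8.53 CPM in KO chow (log2 fold change -0.46 ± 0.13, adjusted p = 0.013, edgeR) and to 60.0 ± 3.95 CPM in WT CDAHFD (log2 fold change -0.79 ± 0.11, adjusted p = 9.24e-05, edgeR). Without KO chow replicate 1 the first call was lost (adjusted p = 0.168). Nr6a1, encoding GCNF, was lower in WT CDAHFD (log2 fold change -0.73 ± 0.17, adjusted p = 0.00262, edgeR) and not called in KO chow (-0.30 ± 0.19, adjusted p = 0.219, edgeR). Nr5a1, the gene of the steroidogenic factor SF-1, had 1 count in each of 2 libraries, and Nr0b1 (DAX1), Nr2e1 (TLX) and Nr2e3 (PNR) had 0 counts in all 12, where 3 counts in a library would be the limit that a count of 0 allows.

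On CDAHFD, 1 receptor was called between the genotypes. Esrrg was lower in KO CDAHFD than in WT CDAHFD (log2 fold change -3.71 ± 0.56, adjusted p = 0.0118, edgeR), a pooled difference of 13.6 times (95% exact interval 6.72 to 32.2, counting error only). That is 3.2% of the tested receptors lower, against 0.271% of all genes, and 0 higher, against 0.0864%. At an unadjusted p under 0.05, 2 receptors were higher, and DESeq2 called 0 higher as well, beside 0.68% of all genes. Esrrg passed the filter with no KO library past its minimum, so its call is no support for this count. Without it, Vdr, Nr4a3 and Hnf4g, 0 of 27 were called in either direction. The Esrrg call was lost when any 1 of WT CDAHFD replicate 3 or the 3 KO CDAHFD replicates was left out, with adjusted p up to 0.0838, while its direction held. Hnf4g and Nr1i3, whose KO CDAHFD libraries were above all WT CDAHFD libraries, had differences of 1.41 ± 0.42 and 0.70 ± 0.26 (adjusted p = 0.288 and 0.449, edgeR).

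Within KO mice, Nr1i3 and Hnf4g were called higher on CDAHFD. Nr1i3 was 3.22-fold higher in KO CDAHFD than in KO chow (log2 fold change 1.69 ± 0.31, adjusted p = 0.01, edgeR) and Hnf4g 4.25-fold higher (log2 fold change 2.09 ± 0.52, adjusted p = 0.0355, edgeR). That is 6.5% of the tested receptors higher, against 3.76% of all genes, and 0 lower, against 2.44%. Hnf4g passed the filter with no WT chow library and only 1 KO chow library past its minimum. Without it, Vdr, Nr4a3 and Esrrg, 1 was higher and 0 lower of 27. Of all 31 tested, 3 were lower at an unadjusted p under 0.05, and DESeq2 called 1 lower (Nr1i2) and 5 higher. Of all genes DESeq2 called 3.84% lower and 7.12% higher. The edgeR calls of Nr1i3 and Hnf4g both depend on the 2 KO chow libraries. Without either of these libraries the Nr1i3 call was lost, with log2 fold changes of 1.75 and 1.65. The Hnf4g call was lost in 10 of the 19 alternatives. Thra was higher in all KO CDAHFD libraries than in both KO chow libraries and did not pass the threshold (log2 fold change 0.68 ± 0.19, adjusted p = 0.0508, edgeR), although it did with DESeq2 (adjusted p = 0.00776).

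The interaction of genotype and diet was called for 8 receptors. The interaction is the change with CDAHFD in KO mice minus that in WT mice, and 5 receptors (16.1%, against 8.63% of all genes) had a higher and 3 (9.7%, against 14.5%) a lower value. Without Vdr, Nr4a3, Hnf4g and Esrrg, which passed the filter only through the groups in which they were high, 5 were higher and 1 lower of 27. Nr0b2 fell with CDAHFD in WT mice, and in KO mice differed by 1.23 ± 0.52 without a call, an interaction of 3.16 ± 0.69 (adjusted p = 0.00513, edgeR). Nr1i3 fell with the diet in WT and rose in KO mice, with an interaction of 2.59 ± 0.40 (adjusted p = 0.000516, edgeR). Thrb (1.23 ± 0.23, adjusted p = 0.00181, edgeR) and Nr1h4 (1.16 ± 0.22, adjusted p = 0.00247, edgeR) fell with the diet in WT mice, and their differences in KO mice, -0.09 ± 0.17 and -0.14 ± 0.17, were not called. Thra had an interaction of 0.98 ± 0.24 (adjusted p = 0.011, edgeR). In the other direction, Nr4a3 (-3.88 ± 0.55, adjusted p = 0.000304) and Nr4a1 (-1.85 ± 0.48, adjusted p = 0.0137, edgeR) rose with the diet in WT mice, while in KO mice their differences of -0.11 ± 0.37 and -0.70 ± 0.36 were not called. The third was Vdr, whose value rests on the 2 counts in WT chow and whose call was lost with the replicate block and without the 4 libraries with a clock score above 0.

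Genes known to be regulated by these receptors were read from fixed lists. Of all genes, 22.0% were higher and 17.0% lower in KO chow, and 26.1% and 25.0% in WT CDAHFD. With library totals the shares were 40.5% and 6.62%, and 52.4% and 6.74%. Of 12 genes known as CAR or PXR targets, 6 were higher and 1 lower in KO chow, and 6 higher and 2 lower in WT CDAHFD, with medians of 1.55 and 1.08 against 0.002 and -0.048 for all genes. Cyp3a11, a bile acid and drug hydroxylase, had 296 ± 19.98 CPM (SD, n = 4) in WT chow, 3495 ± 486 CPM in KO chow (log2 fold change 3.56 ± 0.15, adjusted p = 1.57e-08, edgeR) and 1702 ± 131 CPM in WT CDAHFD. Cyp2b10, the classical CAR target, had no count in WT chow and 414 counts in KO chow, 313 of them in a single library. That is at least 46.1-fold higher against a floor of 3 counts per library. In WT CDAHFD it had 28 counts, at least 1.70-fold higher. Cyp2b10 passed the filter through KO chow, the group in which it was high, so its calls are no support for the counts of this list. Cyp2c29 went the other way, from 524 ± 76.6 CPM in WT chow to 174 ± 29.7 CPM in KO chow and 25.8 ± 6.17 CPM in WT CDAHFD (log2 fold change -4.35 ± 0.20, adjusted p = 1.38e-08, edgeR). In KO CDAHFD relative to KO chow, 6 of the 12 were lower, against 2.44% of all genes. Besides Cyp2b10, with 11 counts in KO CDAHFD, they were led by Cyp2c29 (-2.32 ± 0.20) and Cyp2c55 (-1.86 ± 0.28), while Nr1i3 itself was higher.

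Bile acid genes known as FXR targets moved both ways. The list did not separate genes that FXR induces from those it represses, so FXR activity is not read from its directions or median. Of 10, 4 were higher and 3 lower in KO chow, and 3 higher and 4 lower in WT CDAHFD, with medians of -0.23 and 0.01 that became 0.18 and 0.56 with library totals. Slc51b, an organic solute transporter subunit induced by FXR, rose (3.20 ± 0.61 and 3.005 ± 0.57), and the bile acid importer Slc10a1 fell (-2.51 ± 0.30 and -2.89 ± 0.26). Cyp8b1, the sterol 12α-hydroxylase, was lower, with log2 differences of -2.45 ± 0.22 in KO chow and -1.31 ± 0.17 in WT CDAHFD. LXR targets also moved both ways. Of 11, 4 were higher and 1 lower in KO chow, and 4 higher and 5 lower in WT CDAHFD, from Lpl, lipoprotein lipase, at 4.41 ± 0.28 to Scd1, stearoyl-CoA desaturase, at -5.87 ± 0.50, and the medians of -0.17 and -0.30 became 0.23 and 0.26 with library totals. The HNF4α targets were lower as a list: 8 of 9 in KO chow and 9 of 9 in WT CDAHFD, with medians of -0.80 and -1.16 against 0.002 and -0.048 for all genes. The general hepatocyte markers fell to a like extent, 5 of 7 and 7 of 7, with medians of -0.75 and -1.18. A difference between the HNF4α targets and these markers was not tested. With library totals 4 and 6 of the HNF4α targets were called lower and 0 higher, against 6.62% and 6.74% of all genes lower. Examples of these targets are Apoa2, apolipoprotein A-II (-1.39 ± 0.21), in KO chow and G6pc, glucose-6-phosphatase (-2.24 ± 0.60), in WT CDAHFD.

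Of 7 thyroid hormone targets, 5 were lower and 1 higher in each comparison with WT chow. Dio1, type 1 deiodinase, fell from 197 ± 37.3 CPM to 27.05 ± 7.83 CPM in KO chow (log2 fold change -2.87 ± 0.22, adjusted p = 1.09e-06, edgeR), Thrsp was lower, with log2 differences of -2.48 ± 0.24 in KO chow and -4.11 ± 0.22 in WT CDAHFD, and the higher gene, Hr, rose by 2.75 ± 0.24 and 3.88 ± 0.22. With library totals 3 and 2 were lower. For the glucocorticoid receptor, 3 of 10 targets were higher and 1 lower in KO chow, and 3 higher and 3 lower in WT CDAHFD, with medians of -0.15 and -0.33 that became 0.29 and 0.26 with library totals. The metallothionein gene Mt1 (4.14 ± 0.33 and 3.78 ± 0.31) and Sgk1 (2.61 ± 0.26 and 1.150 ± 0.24) were higher in both, and Tat, tyrosine aminotransferase, was lower in WT CDAHFD (-1.26 ± 0.26). Of 4 tested retinoic acid targets, Tgm2 was higher in both (1.02 ± 0.19 and 1.12 ± 0.18) and Dhrs3 lower in KO chow (-0.78 ± 0.27). Of 8 mitochondrial genes known as ERR targets, 4 were lower and 1 higher in KO chow and 4 lower and 2 higher in WT CDAHFD, against 1 lower and 3 higher, and 1 lower and 4 higher, with library totals. Sdha, a subunit of succinate dehydrogenase, was at -0.76 ± 0.12 and -0.80 ± 0.11, and Pdk4 at 2.09 ± 0.61 and 2.49 ± 0.57.

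Of 16 coregulators of nuclear receptors, 7 were lower and 1 higher in KO chow, led by Ncoa1 (-0.71 ± 0.19), Ncor1 (-0.65 ± 0.19) and Ep300 (-0.57 ± 0.19), but with library totals none of them was called lower and 5 were higher. In WT CDAHFD, 1 was lower (Med1, -0.45 ± 0.10) and 2 were higher, against 0 and 12 with library totals. Of all genes, library totals called 40.5% higher and 6.62% lower in KO chow, and 52.4% and 6.74% in WT CDAHFD. With TMM scaling the shares were 22.0% and 17.0%, and 26.1% and 25.0%. On CDAHFD, Nrip1, encoding the corepressor RIP140, was lower in KO than in WT mice (log2 fold change -0.64 ± 0.12, adjusted p = 0.0467, edgeR), at 16.2 to 19.9 CPM against 26.5 to 31.8 CPM.

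**Figure D4:**
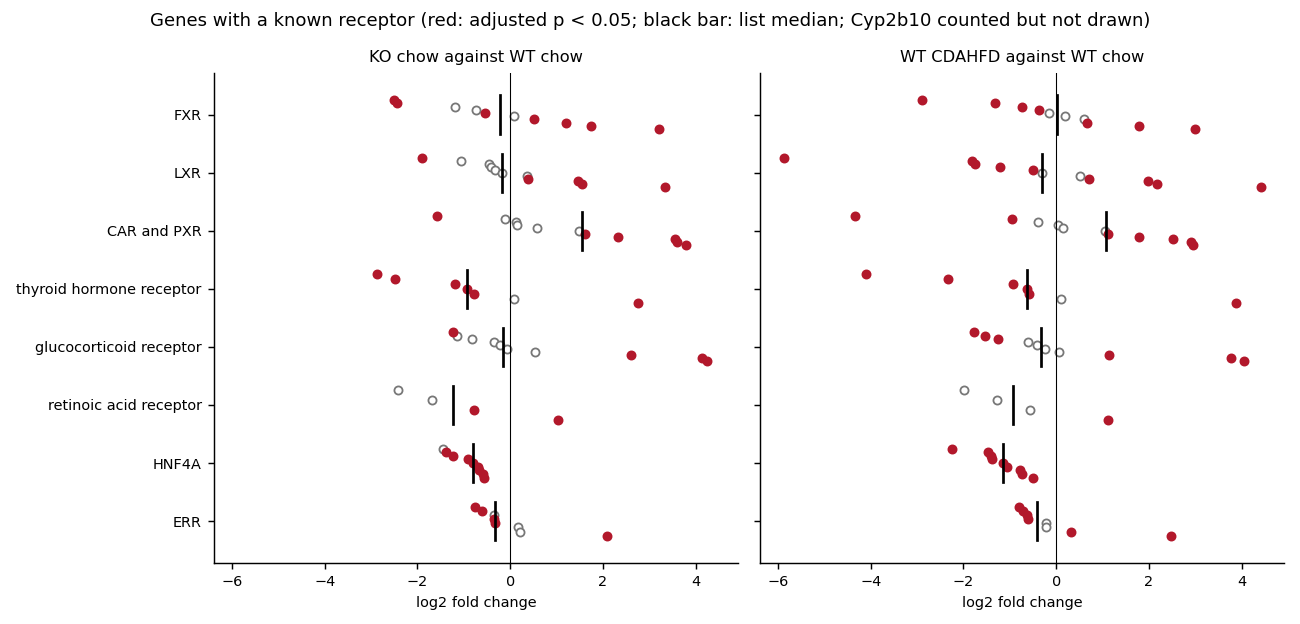
Log2 fold change of the genes known as targets of each receptor, in KO chow (left) and WT CDAHFD (right) relative to WT chow, each point a gene, red where the adjusted p is under 0.05, with a black bar at the median of the list and Cyp2b10 counted but not drawn. HNF4α targets lie below 0, CAR and PXR targets lie mostly above 0, and the other lists spread to both sides.

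The order of the WT chow libraries was compared with their clock score. Within WT chow, the 2 libraries with a clock score above 0 held the 2 highest values of 13 of the 31 tested receptors, among them Hnf4a, Nr1h4, Nr1i3 and Nr3c2, and the 2 lowest values of 6, among them Esr1, Esrrg and Thrb, beside 23.2% and 21.6% of all genes. With the score as a covariate, 5 receptors were higher and 14 lower in KO chow (edgeR), and 6 and 15 in WT CDAHFD, beside 23.8% and 19.8%, and 28.1% and 27.7% of all genes. Without the 4 libraries of all groups with a score above 0, chosen after the data were seen, which leaves 1 library in KO chow, assumed to vary like the other groups, 3 were higher and 13 lower in KO chow and 5 higher and 11 lower in WT CDAHFD, beside 17.2% and 13.1%, and 24.7% and 24% of all genes. In that selection each of Nr0b2, Nr1h4, Thrb and Nr4a1 kept its direction in both comparisons (edgeR). So did Esrrg and Nr4a3, which passed the filter only through the groups in which they were high. Vdr lost its call in KO chow, and Hnf4a, Hnf4g, Nr1i3, Nr2f2, Nr3c2 and Esrrb lost theirs in WT CDAHFD.

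**Figure D5:**
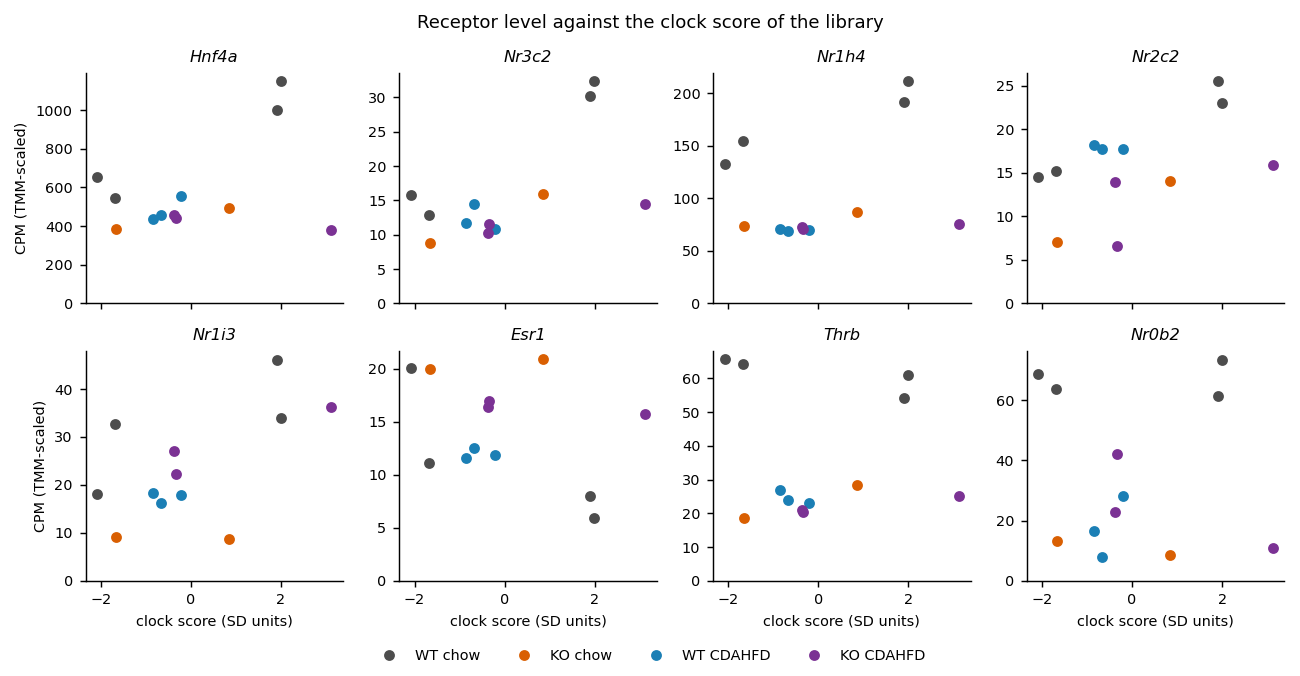
CPM of 8 receptors against the clock score of each library, in SD units of evening minus morning genes, coloured by group. In WT chow, Hnf4a and Nr3c2 are highest and Esr1 is lowest in the libraries at 1.90 and 1.99, while Thrb and Nr0b2 separate WT chow from the other groups at any score.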

How the data were processed

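Total RNA of 12 mouse livers (RNeasy) was sequenced as poly(A) libraries that do not keep the strand. The authors checked reads with FastQC 0.11.5 and aligned them with STAR 2.7.3a to GRCm38, and deposited raw counts per Ensembl gene. The counting program and its annotation are not given in the sources used here. Groups were taken from the labels: 4 WT chow, 3 WT CDAHFD, 2 KO chow and 3 KO CDAHFD libraries of 29906785 to 43551003 counts. The study describes 3 mice per group, whereas the labels give 4, 3, 2 and 3. The groups follow the labels, although the description of 1 KO chow library is numbered 3. The labels give separate samples, and p-values measure the spread between them.

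Identifiers were matched to GENCODE M21 (94.08% of identifiers, 99.691% of counts), and exon lengths and overlaps were read from it. The deposited counts were fitted with edgeR 4.0.16 (R 4.3.3; filterByExpr, TMM, quasi-likelihood F-test, 4 group means over all 12 libraries, 8 residual degrees of freedom) over 17358 genes. A gene was called at a Benjamini-Hochberg adjusted p under 0.05 over all of them. The standard error is the log2 fold change divided by the square root of F. DESeq2 1.42.0 was an alternative, besides other scalings, no filter, a replicate block, a clock score covariate and leaving out libraries. The fits were tested on simulated data. Intervals of pooled ratios are exact, at 95%, and cover counting error only. All receptors are named. Values in each library are given for those with the 4 largest called changes in each direction of a comparison, for those called in the interaction and for the 3 most abundant. Of other lists, up to 3 called genes with the largest changes are named, while Cyp3a11, Tat, Sgk1 and the library values of other receptors were added after their values were seen. A gene that the rule names is not reported here. The receptors, the lists of targets and markers and the motifs were chosen with earlier results of these data known.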

Additional observations from a re-analysis of the deposited data

Results flagged for a closer look

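In WT chow, the only group of 4, the highest library stood apart from the other 3 by Dixon's criterion at the 95% level for 4 of the 31 tested receptors, where chance flags about 1 in 20. Nr1h5 was at 5.55 CPM in replicate 4, against 3.11 to 3.31 CPM in the others. Esrra was at 53.0 CPM and Rara at 30.1 CPM, both in replicate 3. Vdr was at 0.0776 CPM in replicate 1, which is 2 counts, and at 0 in the others. With 0 in the other 3, any count meets the criterion, so Vdr cannot be set against the rate of 1 in 20.

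The interaction test of edgeR, on whether the change with CDAHFD differed between KO and WT mice, called 8 receptors. Among them, Nr4a3 and Vdr passed the filter with no WT chow library past its minimum. The log2 difference of the changes was 2.59 for Nr1i3 (adjusted p = 0.000516), 3.16 for Nr0b2 (adjusted p = 0.00513), 1.16 for Nr1h4 (adjusted p = 0.00247), 1.23 for Thrb (adjusted p = 0.00181) and 0.98 for Thra (adjusted p = 0.011). It was -3.88 for Nr4a3 (adjusted p = 0.000304), -1.85 for Nr4a1 (adjusted p = 0.0137) and -4.27 for Vdr, whose fitted value rests on 2 counts in WT chow and from which no test is read. Without KO chow replicate 1 the Thra interaction was not called (adjusted p = 0.0579), nor with library totals (adjusted p = 0.0584), and the Vdr interaction was lost with the replicate block and without the 4 libraries with a clock score above 0.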

How the results depend on the processing

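Of 46 called receptor results, 21 kept their call in all 19 alternatives, and 15 lost it when 1 library was left out. Of 874 alternative fits, 796 kept call and direction, 76 lost the call and 2 reversed, both with library totals: Nr2c1 at 0.13 (adjusted p = 0.294) and Nr3c1 at 0.093 (adjusted p = 0.509) in WT CDAHFD against WT chow (edgeR). With library totals 13 receptors were called in that comparison, in place of 21. In KO CDAHFD against KO chow, 2 were called, and 4 with library totals, 5 without a filter, 6 with DESeq2, 4 with the clock covariate and 4 without the 4 libraries with a clock score above 0, an alternative chosen after seeing the data. Leaving out 1 library gave 9 to 17 called in KO chow against WT chow (lowest without KO chow replicate 1), 0 to 1 in KO CDAHFD against WT CDAHFD (0 without WT CDAHFD replicate 3 or any KO CDAHFD library) and 0 to 4 in KO CDAHFD against KO chow (0 without KO chow replicate 1). Over all genes in KO CDAHFD against KO chow, 1075 were called. Library totals called 1383, no filter 1340 of 30104, DESeq2 1903 and the clock covariate 1496. Leaving out 1 library outside KO chow gave 459 to 1437 of all genes there, and 6067 to 7128 in KO chow against WT chow. In KO CDAHFD against WT CDAHFD, it gave 26 to 75. Without either KO chow library, the all-gene calls in both comparisons with KO chow fell below these ranges, so the drop was not particular to the receptors. The cause was not tested. A library left alone in KO chow is assumed to vary like the other groups. Replicate numbers did not pair the samples: deviations of same-numbered libraries correlated at -0.242 to 0.266. The replicate block gave 12, 19, 1, 1 and 7 called, in place of 14, 21, 1, 2 and 8. Of all genes it called 5433, 7797, 59, 640 and 3137, in place of 6763, 8863, 62, 1075 and 4011. Vdr, Nr4a3, Hnf4g and Esrrg rest on few counts, which limits their fold changes. Their calls are among the 46 results. They passed the filter only through the groups in which they were high, so their kept calls are no support for the 21.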
